A study of Mus musculus with 6 samples.

Results

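The genes described here are 10 members of the MHC class I antigen presentation pathway, measured in mouse squamous cell carcinoma (SCC) cells with and without focal adhesion kinase (FAK). They were chosen by a list of Ensembl gene identifiers of the pathway, given with their symbols. All 10 had a value on every array, of 17204 genes in the table. Every nucleated cell can use this pathway to show fragments of its own proteins to CD8+ T cells. The proteasome, with exchangeable catalytic subunits that make it an immunoproteasome, cuts proteins into peptides, the TAP transporter carries the peptides into the endoplasmic reticulum, and there they are trimmed and loaded onto a heavy chain paired with beta-2 microglobulin. Interferons raise many of these genes, and tumor cells that lose the pathway can escape CD8+ T cells.

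The study asked how FAK in SCC cells shapes the immune response to a tumor. The SCC arose by chemical carcinogenesis of the skin in K14CreER FAKflox/flox mice of the FVB strain, in which Cre is under the keratin 14 promoter and acts once tamoxifen is given. 4-hydroxytamoxifen deleted the floxed fak gene in the isolated cells, and 1 FAK-null clone (SCC FAK-/-) was taken on. SCC FAK-WT cells are that clone after retroviral transduction with wild-type FAK, kept under hygromycin, so the lines share the deletion and differ in FAK together with the vector, its infection and its selection, which cannot be told apart here. RNA of 3 biological replicates of each line, named replicates 1 to 3, was put on 6 Affymetrix gene expression arrays, 1 for each replicate, and the protocols name no added interferon. Values are log2 expression after Robust Multi-array Average (RMA) normalization, and differences are SCC FAK-WT minus SCC FAK-/-. Array values have no read depth, so the number of arrays limits the precision. The median over all genes was 5.90 to 5.97 on the 6 arrays. Levels on the array cannot be compared between genes, because probes bind their targets to different degrees. The gene of FAK itself and the markers of squamous cells and of other cell types were not analysed here, since the identifiers were not paired with symbols beyond these 10, so the labels of the lines were not checked on the arrays. In RNA of whole cultures, fewer cells that express a gene and less RNA per cell cannot be told apart.

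No class I gene reached the thresholds set for a difference between the 2 cell lines, and the genes with the largest differences, H2-D1 and Psmb10, were higher in SCC FAK-WT. None of the genes (0 of 10) passed an adjusted p under 0.05 in limma with Benjamini-Hochberg adjustment over all genes, where 1.92% of all genes did, and the adjusted p values of the 10 ran from 0.230 to 0.983. None (0 of 10) passed an unadjusted p under 0.01 either, where 6.85% of all genes did. This threshold was taken up because the study's text gives p under 0.01, with no word on the test or on adjustment. At an unadjusted p under 0.05, a threshold added after the values were seen, Psmb10 and H2-D1 passed (2 of 10), where 15.5% of all genes did. With an ordinary linear model for each gene, 0 of the 10 passed an adjusted p under 0.05, where 0.227% of all genes did. In that model B2m, 1 of the 10, passed an unadjusted p under 0.01 and thereby under 0.05, where 5% and 13.9% of all genes did. The 3 arrays of one line lay wholly above those of the other for 3 of the 10 genes, against 21.5% of all genes. Of the members, 5 had a positive and 5 a negative difference, of which that of Nlrc5 turned to 0.024 when each array was centred on its median. Tap1, Tap2, Psmb8, Nlrc5 and Erap1 each changed sign with some array left out. The median log2 fold change of the 10 genes was 0.0031, beside 0.016 over all genes. It ran from -0.089 to 0.030 with each array left out, negative without SCC FAK-WT replicate 1 (-0.089) or SCC FAK-/- replicate 3 (-0.086). Their median absolute log2 fold change was 0.11, beside 0.14 over all genes.

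The 95% intervals of the fit show how precisely each difference was measured. For 6 of the 10 genes, B2m, Tap1, Tap2, Tapbp, Psmb8 and Nlrc5, the interval lay within 1.5-fold in either direction, and 5 to 7 genes met this under the alternatives. The upper bound of H2-D1 reached furthest, at 1.998-fold, and was 1.77-fold to 2.30-fold under the alternatives. For Nlrc5, whose signal was among the lowest, and for B2m, whose signal was near the top of the range, the array can understate a difference, so their intervals do not limit the difference in RNA. With 3 arrays a line, the smallest two-sided p that exact permutation allows is 0.1, and the p values here come from limma, which borrows the spread of all genes.

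**Figure D1:**
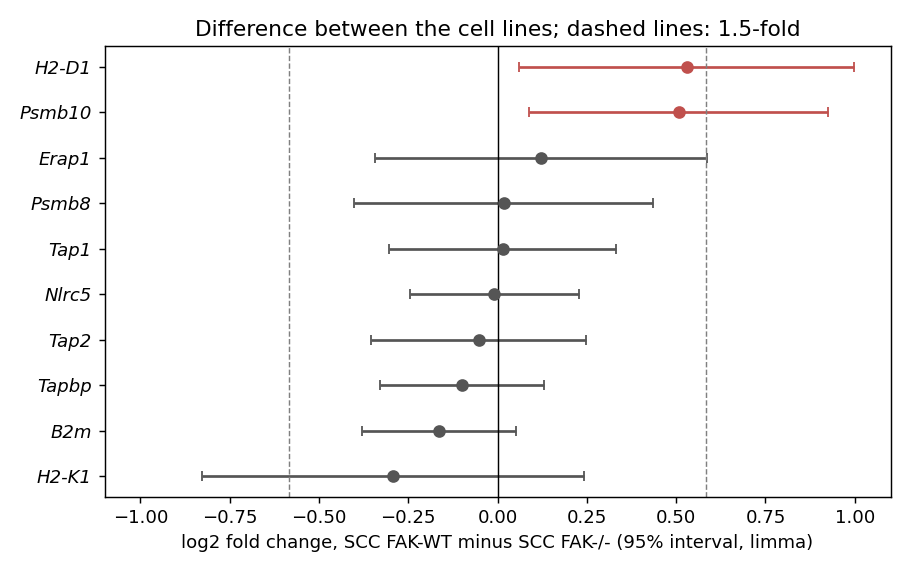
Difference between the lines for each of the 10 genes (log2 fold change, SCC FAK-WT minus SCC FAK-/-, horizontal axis) with its 95% interval from limma. Red marks the 2 genes at an unadjusted p under 0.05, Psmb10 and H2-D1, the dashed lines mark 1.5-fold, and the intervals of 6 genes lie between them.

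The heavy chains bind the peptide and are what the T cell receptor reads. H2-D1 (ENSMUSG00000073411), which encodes one of the classical heavy chains, was at 9.39, 9.25 and 9.81 in SCC FAK-WT replicates 1 to 3 and at 8.65, 8.96 and 9.25 in SCC FAK-/- replicates 1 to 3. The lines met only at their edges, with SCC FAK-WT replicate 2 a little below SCC FAK-/- replicate 3. The means were 9.48 ± 0.29 (SD, n = 3) and 8.96 ± 0.30 (SD, n = 3), a 1.44-fold difference (95% interval 1.04 to 2.00; log2 fold change 0.53, standard error 0.20), which did not pass the adjustment (limma adjusted p = 0.261). The log2 fold change was 0.37 to 0.68 with each array left out. An unadjusted p under 0.05 was lost without SCC FAK-WT replicate 1 or 3, without SCC FAK-/- replicate 1 or 2, and in the ordinary linear model.

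H2-K1 (ENSMUSG00000061232), the other classical heavy chain of the list, was at 7.38, 7.26 and 8.16 in SCC FAK-WT replicates 1 to 3 and at 7.85, 7.94 and 7.88 in SCC FAK-/- replicates 1 to 3. The SCC FAK-/- arrays sat close together, while SCC FAK-WT replicates 1 and 2 were below all of them and replicate 3 above all of them. The means were 7.60 ± 0.49 (SD, n = 3) in SCC FAK-WT and 7.89 ± 0.046 (SD, n = 3) in SCC FAK-/-, which gives a log2 fold change of -0.29 (95% interval -0.83 to 0.24, limma adjusted p = 0.624). The size of the difference depended on single SCC FAK-WT arrays. Without SCC FAK-WT replicate 3 the log2 fold change was larger, at -0.57, and passed an unadjusted p under 0.01. Its limma adjusted p was then 0.0922 (0.0922 to 0.874 over the alternatives). Without SCC FAK-WT replicate 1 the log2 fold change was smaller, at -0.18, and without SCC FAK-WT replicate 2 it was -0.12. SCC FAK-WT replicate 3 was also the highest of its line for H2-D1, by 0.33 above the line's mean on the log2 scale against 0.56 for H2-K1. The spread of H2-K1 between replicates (SD 0.35 within lines) was larger than that of 89.4% of all genes, and that of H2-D1 (0.30) larger than that of 83.9%. The heavy chain genes are among the most polymorphic of the genome and have near relatives beside them. The probes behind these values are not named in the table, so the part of related heavy chain transcripts in either value, and the fit of the probes to the FVB alleles, were not tested. Both lines come from 1 clone and share those alleles.

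B2m (ENSMUSG00000060802) encodes beta-2 microglobulin, the light chain that class I heavy chains generally need to reach the surface. It was at 12.52, 12.57 and 12.49 in SCC FAK-WT replicates 1 to 3 and at 12.73, 12.69 and 12.66 in SCC FAK-/- replicates 1 to 3. Every SCC FAK-WT array lay below every SCC FAK-/- array, by a small step. The means were 12.53 ± 0.044 (SD, n = 3) and 12.69 ± 0.036 (SD, n = 3), 1.12-fold higher in SCC FAK-/- (log2 fold change -0.16, 95% interval -0.38 to 0.051, limma adjusted p = 0.466). B2m varied so little between replicates (SD 0.040 within lines, below that of all but 1.40% of genes) that its test turned on how the variances were treated. It passed an unadjusted p under 0.01 in the ordinary linear model and with variances moderated by level and robustly, at adjusted p values of 0.184 and 0.0756 (0.0756 to 0.675 over the alternatives). Scaling mattered too: quantile normalization and cyclic loess gave log2 fold changes of -0.21 and -0.22, each at an unadjusted limma p under 0.05. The highest value of any gene on any array was 13.76. Whether signals near the top of the range were compressed was not tested.

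For Tap1, Tap2, Tapbp and Erap1, whose products carry, load and trim peptides, the differences were small beside their intervals. Tap1 (ENSMUSG00000037321) and Tap2 (ENSMUSG00000024339) encode the subunits of the peptide transporter. Tap1 was at 6.25, 5.93 and 5.99 in SCC FAK-WT and at 6.10, 6.18 and 5.85 in SCC FAK-/- replicates 1 to 3. Tap2 was at 6.23, 6.03 and 5.84 in SCC FAK-WT and at 6.14, 6.14 and 5.97 in SCC FAK-/-. The lines overlapped throughout for both genes. The log2 fold change was 0.015 for Tap1 (95% interval -0.30 to 0.33, limma adjusted p = 0.978) and -0.052 for Tap2 (95% interval -0.35 to 0.25, limma adjusted p = 0.902).

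Tapbp (ENSMUSG00000024308) encodes tapasin, which bridges the transporter and the empty heavy chain and helps to select peptides. It was at 9.51, 9.38 and 9.54 in SCC FAK-WT and at 9.62, 9.55 and 9.57 in SCC FAK-/- replicates 1 to 3. The lines did not overlap, with SCC FAK-WT the lower, but the highest SCC FAK-WT array and the lowest SCC FAK-/- array were almost equal. The log2 fold change was -0.099 (95% interval -0.33 to 0.13, limma adjusted p = 0.713), and it was -0.049 without SCC FAK-WT replicate 2. Erap1 (ENSMUSG00000021583), the aminopeptidase that trims peptides in the endoplasmic reticulum, was at 4.12, 3.58 and 3.38 in SCC FAK-WT and at 3.76, 3.46 and 3.50 in SCC FAK-/-. SCC FAK-WT held both its highest and its lowest array. The log2 fold change was 0.12 (standard error 0.20, limma adjusted p = 0.844), and it was -0.091 without SCC FAK-WT replicate 1. The mean signal of Erap1 was low, above that of only 19.8% of all genes. Whether its low signal understated a difference was not tested.

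The list holds a pair of immunoproteasome subunits. Psmb10 (ENSMUSG00000031897), which encodes the MECL-1 subunit that replaces a catalytic subunit of the standard proteasome, was at 8.68, 9.24 and 8.57 in SCC FAK-WT and at 8.33, 8.37 and 8.28 in SCC FAK-/- replicates 1 to 3. Every SCC FAK-WT array lay above every SCC FAK-/- array, and SCC FAK-WT replicate 2 stood above the rest of its line. The means were 8.83 ± 0.36 (SD, n = 3) and 8.33 ± 0.042 (SD, n = 3), a 1.42-fold difference (95% interval 1.06 to 1.90; log2 fold change 0.51, standard error 0.18), which had the smallest p of the 10 genes and did not pass the adjustment (limma adjusted p = 0.230). Without SCC FAK-WT replicate 2 the log2 fold change was 0.30 (limma adjusted p = 0.271, and 0.177 to 0.417 over the alternatives). An unadjusted p under 0.05 was lost without SCC FAK-/- replicate 1 or 3 and in the ordinary linear model. Psmb8 (ENSMUSG00000024338), which encodes the LMP7 subunit, was at 5.69, 5.15 and 5.59 in SCC FAK-WT and at 5.45, 5.69 and 5.24 in SCC FAK-/-. The lines overlapped over nearly their whole range, with a log2 fold change of 0.018 (95% interval -0.40 to 0.44, limma adjusted p = 0.980). SCC FAK-WT replicate 1 and SCC FAK-/- replicate 2 held exactly the same value of Psmb8, as was true of some pair of arrays for 459 genes, 2.67% of the table.

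Nlrc5 (ENSMUSG00000074151) encodes the transactivator that binds with RFX factors at the promoters of class I genes. It was at 2.84, 2.88 and 2.79 in SCC FAK-WT and at 2.97, 2.79 and 2.78 in SCC FAK-/- replicates 1 to 3. All 6 arrays lay within a narrow range, with a log2 fold change of -0.0085 (95% interval -0.24 to 0.23, limma adjusted p = 0.983). The mean signal of Nlrc5 lay within the lowest decile over all genes, which ended at 2.88. The table gives no detection calls, so whether the gene was above background was not tested, and a difference near the background can be understated.

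**Figure D2:**
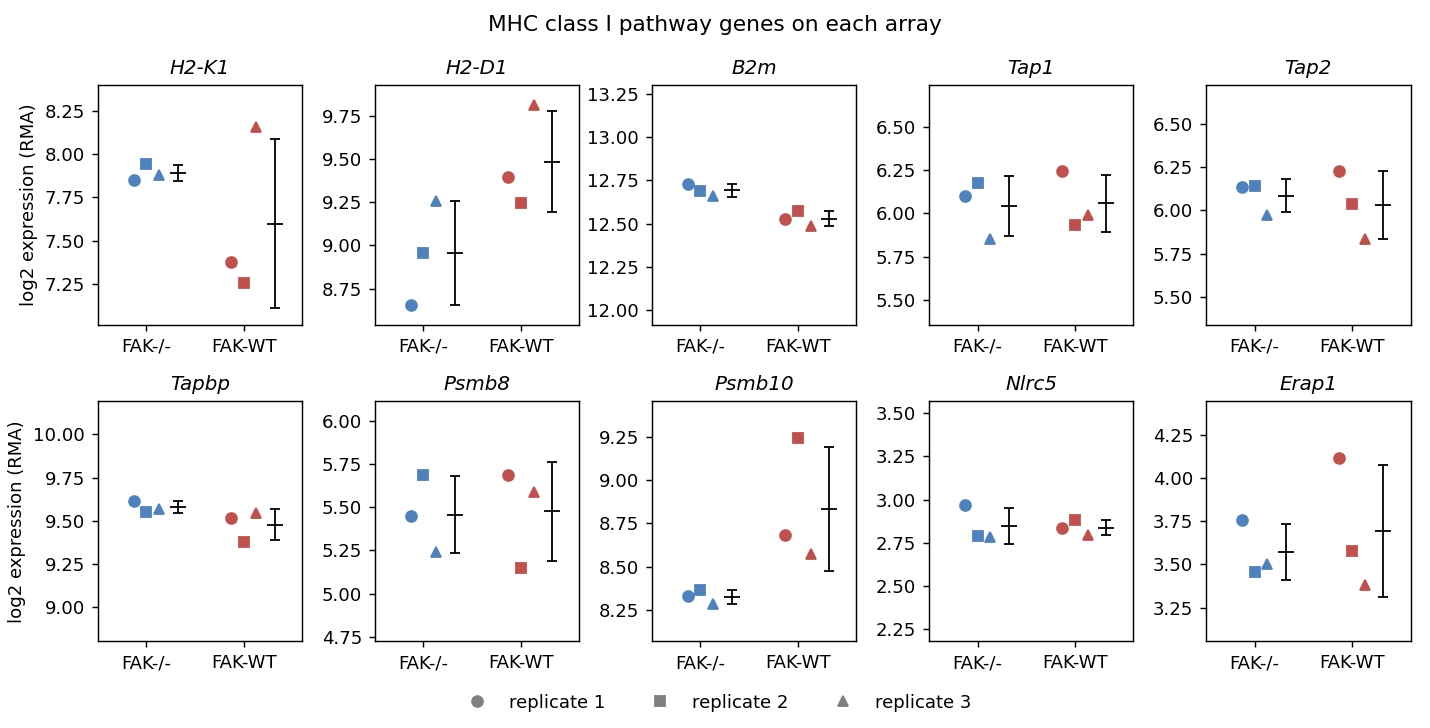
log2 expression (RMA) of each gene on each array, with SCC FAK-/- in blue and SCC FAK-WT in red, marker shapes for replicates 1 to 3 and black bars for the mean ± SD (n = 3). Each panel spans the same range of log2 units around its own centre, and only Psmb10, B2m and Tapbp show no overlap between the lines.

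The spread between replicates was uneven over the members. The median SD within lines was 0.21 for the 10 genes and 0.17 over all genes. For 7 of the 10 genes SCC FAK-WT had the larger SD, beside 53.5% of all genes. The array that departed most from its line was not the same for each step of the pathway. It was SCC FAK-WT replicate 3 for H2-K1, H2-D1 and Tap2, SCC FAK-WT replicate 2 for B2m, Tapbp, Psmb8 and Psmb10, SCC FAK-WT replicate 1 for Erap1, SCC FAK-/- replicate 3 for Tap1 and SCC FAK-/- replicate 1 for Nlrc5. Several were nearly tied. For H2-D1, SCC FAK-WT replicate 3 was 0.33 above its line's mean, and SCC FAK-/- replicates 1 and 3 were at -0.30 and 0.30 from theirs. SCC FAK-WT replicate 2 was 0.41 above its line's mean for Psmb10 and at -0.32 from it for Psmb8.

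Genome position and promoter sequence were not used to choose the members. In RefSeq's mouse annotation Tap1, Psmb8 and Tap2 follow each other on chromosome 17 with no other coding gene between them, and Psmb9, a further immunoproteasome subunit that was not analysed here, lies before Tap1. The promoter table of RefSeq (GRCm38.p6, the C57BL/6J genome, which can differ from FVB) matched 8 of the 10 genes by symbol, all but Tap2 and Nlrc5. In the 250 bases upstream of the start, 6 motifs were searched on both strands. TGACG, a core of the cyclic AMP response element, was found in 4 of the 8 genes and in 17.7% of 32817 promoters. ATTGG, an inverted CCAAT box, was found in 5 of the 8 and in 33.8% of promoters. GAAANNGAA, a core of the interferon-stimulated response element, was found in 2, B2m and Erap1, and in 7.12% of promoters. TTCNNNGAA, a gamma-activated site, was found in 1, Psmb8, and in 7.01% of promoters. GAANNGAAA, a form of the interferon-stimulated core with another spacing, and GGGATTCCC, an NF-kB site, were added after the promoters had been seen. Each was found in 2 genes, H2-K1 and H2-D1, and they occur in 6.31% and 0.302% of promoters. None of the matches in the promoters shown overlapped another.

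H2-K1, H2-D1 and B2m held TGACG followed, after 20 bases, by ATTGG on the same strand, a spacing noticed in these promoters and present in 30 of the 32817 promoters (0.0914%). Textbook descriptions place the X and Y boxes of class I promoters, at which NLRC5 and its partners assemble, side by side in this way. A match of letters is a description and not a binding site. The promoters of the 4 genes whose values differed most between the lines are shown, 5′ to 3′, with capitals for every match of the 6 motifs. Of H2-K1, which has 2 starts 14 bases apart in the table, the one nearer to the gene is given.
H2-K1, chr17:34000334-34000583, minus strand: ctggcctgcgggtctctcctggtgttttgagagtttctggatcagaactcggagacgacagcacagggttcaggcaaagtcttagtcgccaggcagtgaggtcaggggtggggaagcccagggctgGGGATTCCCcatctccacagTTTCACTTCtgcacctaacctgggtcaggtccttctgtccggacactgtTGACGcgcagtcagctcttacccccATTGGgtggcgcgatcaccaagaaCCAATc
H2-D1, chr17:35262844-35263093, plus strand: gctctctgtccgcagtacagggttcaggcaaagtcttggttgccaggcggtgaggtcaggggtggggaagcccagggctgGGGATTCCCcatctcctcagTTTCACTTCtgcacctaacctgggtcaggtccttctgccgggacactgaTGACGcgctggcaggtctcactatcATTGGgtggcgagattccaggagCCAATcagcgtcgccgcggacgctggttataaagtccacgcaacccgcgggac
B2m, chr2:122147437-122147686, plus strand: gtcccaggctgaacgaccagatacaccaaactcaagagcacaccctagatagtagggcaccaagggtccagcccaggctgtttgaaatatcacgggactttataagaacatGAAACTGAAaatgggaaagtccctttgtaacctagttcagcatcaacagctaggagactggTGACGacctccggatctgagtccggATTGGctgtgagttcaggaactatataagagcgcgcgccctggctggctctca
Psmb10, chr8:105938393-105938642, minus strand: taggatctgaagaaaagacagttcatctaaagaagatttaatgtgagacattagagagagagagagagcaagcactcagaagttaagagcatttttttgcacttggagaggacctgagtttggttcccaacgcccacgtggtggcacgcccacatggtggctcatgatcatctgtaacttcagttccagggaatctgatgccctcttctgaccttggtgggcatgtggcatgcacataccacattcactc

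The heavy chain promoters were nearly alike, with 172 of 192 aligned positions identical (89.6%) and a longest shared run of 47 bases. They hold the same 4 kinds of match in the same order. The differences between the lines pointed opposite ways, 0.53 for H2-D1 and -0.29 for H2-K1 on the log2 scale, neither past the adjusted threshold in limma. B2m, with the same spaced pair 78 and 53 bases upstream, had a difference of -0.16. No match of the 6 motifs lay in the printed window of Psmb10, the gene with the smallest p.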

How the data were processed

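RNA of 3 SCC FAK-WT and 3 SCC FAK-/- samples was measured on Affymetrix mouse genome arrays. The authors' values came from the affy package of Bioconductor (RMA on CEL files), with a value for each Ensembl gene identifier. The submitters' processing notes also name these tools. The deposited values were read as log2 expression from their range, as no scale is named. Package version, probe mapping and background variant are not given in the sources used here. The work cited for RMA describes a variant with background correction by probe base composition (GCRMA), so the values called RMA may come from either, which affects dim genes. RMA makes the arrays' distributions alike, so a shift of most genes together would not be seen.

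From these values, limma 3.58.1 in R 4.3.3 fitted the cell line to all 17204 genes (lmFit, eBayes, two-sided, Benjamini-Hochberg over all genes), with no filter, and was tested on simulated data. The alternatives were other variance moderation, 3 further scalings, array weights, a filter on dim genes, the replicate number as a block and each array left out. All 10 genes are named by rule. Earlier results of these data were known when the members, lists and tests were chosen. The tests of each gene, the counts at an adjusted p under 0.05 and an unadjusted p under 0.01, and the median were planned. The counts at an unadjusted p under 0.05 and the ratios were added after the values had been seen. The reference table paired 0 of the identifiers with symbols, so 12 further lists of pathway, regulator and marker genes were not analysed here. Replicates are biological per the series' design text, with no account of how they were made.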

Additional observations from a re-analysis of the deposited data

How the results depend on the processing

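Under all 14 alternatives, no class I gene passed an adjusted p under 0.05 (0 of 138 tests of a gene in a setting), where 0.227% to 3.48% of all genes did. H2-D1 and Psmb10 kept a positive difference and H2-K1, B2m and Tapbp a negative one in each of them, with adjusted p values of 0.176 to 0.507, 0.177 to 0.417, 0.0922 to 0.874, 0.0756 to 0.675 and 0.540 to 0.892 in that order. At an unadjusted p under 0.05, which was added after seeing the data, 0 to 2 genes were higher in SCC FAK-WT and 0 to 1 lower, where 12.9% to 20% of all genes passed. At an unadjusted p under 0.01, 1 gene was lower, B2m, with variances moderated by level and robustly or with no moderation (7.8% and 5% of all genes). With each array left out, 0 to 1 gene was lower, H2-K1 without SCC FAK-WT replicate 3 (5.3% of all genes). Quantile normalization and cyclic loess brought B2m to an unadjusted p under 0.05. A replicate block put 1 gene, H2-D1, higher at an unadjusted p under 0.01 (log2 fold change 0.53, limma adjusted p = 0.176; 5.47% of all genes). The deviations of same-numbered arrays correlated at -0.034 to 0.028 over all genes, so arrays with the same number were not taken as pairs.

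The differences of Tap1, Tap2, Psmb8, Nlrc5 and Erap1 changed sign in some settings. Median centring turned Nlrc5 to 0.024. With arrays left out, the log2 fold change ran from -0.082 to 0.081 for Tap1, from -0.15 to 0.046 for Tap2, from -0.091 to 0.18 for Psmb8, from -0.040 to 0.051 for Nlrc5 and from -0.091 to 0.28 for Erap1. The log2 ratio of H2-K1 to B2m, chosen after seeing the data, differed by -0.43 to 0.065. The median over the 10 genes was 0.036 after median centring and -0.0069 with array weights. The cause was not tested. The filter on dim genes removed Nlrc5 and Erap1, and the median of the 8 genes left was -0.019, with their fold changes as before. Alternatives for the gene of FAK and for further gene lists were not run, since identifiers were not paired with symbols.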

Other observations

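The ratio of genes that work in 1 complex or step was computed within each array, for 5 pairs chosen after the values had been seen. A ratio cancels what an array does to both genes alike, and its level depends on the probes, so only its difference between the lines is read. The log2 ratio of H2-D1 to H2-K1 was 2.02, 1.99 and 1.66 in SCC FAK-WT replicates 1 to 3 and 0.81, 1.02 and 1.38 in SCC FAK-/- replicates 1 to 3. All 3 SCC FAK-WT arrays lay above all 3 SCC FAK-/- arrays. Such a lack of overlap was common, in 9 of the 45 possible ratios of class I genes (20%) and in 22.7% of the ratios of all pairs of genes in the table, so it does not set this ratio apart, nor that of H2-D1 to B2m. The means were 1.89 ± 0.20 (SD, n = 3) and 1.07 ± 0.29 (SD, n = 3), a difference of 0.82 (exact permutation test, two-sided, p = 0.1, the smallest that 3 against 3 can give, and 0.25 after Benjamini-Hochberg adjustment over the 5 pairs). It was 0.69 to 0.98 with each array left out, and 0.81 and 0.80 after quantile normalization and cyclic loess. The difference was 0.69 for H2-D1 to B2m, without overlap (exact permutation p = 0.1, adjusted 0.25), and 0.51 to 0.86 with each array left out, but B2m alone already separated the lines. Compression of the B2m signal near the top of the range, which could affect ratios to it, was not tested. The difference was -0.13 for H2-K1 to B2m (exact permutation p = 0.8), 0.49 for Psmb10 to Psmb8 (exact permutation p = 0.3) and 0.067 for Tap1 to Tap2 (exact permutation p = 0.5), where the lines overlapped. Without SCC FAK-WT replicate 2 the difference of Psmb10 to Psmb8 was 0.12, and without SCC FAK-WT replicate 3 that of Tap1 to Tap2 was 0.0023. Whether the first ratio reflects the transcripts of these 2 loci or of related heavy chains was not tested.

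Across the 6 arrays, the mean standardized pattern of the 10 genes was most like that of ENSMUSG00000052221 (Pearson's r = 0.994) and ENSMUSG00000029716 (r = 0.993), identifiers not paired with symbols here. Among 17204 genes and over only 6 arrays the best match has a high r whatever the pattern, and the mean pools members that vary in different ways, so nothing is read from these values.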
